A study of Mus musculus with 10 samples.

Results

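Ramp1, Gnao1, Capn6, Tbx15, Vat1l and Hapln4 are 6 of the 21101 genes in a table of mouse neural stem cell expression. They were chosen by measured values: an earlier analysis of the same libraries found them far higher in lines deleted of Atrx than in control lines. Therefore their levels by genotype are a description, and no test of that contrast is used as support. All groups share 2 alterations: the neural stem cells lacked p53 and had been transduced with IDH1(R132H), a mutant metabolic enzyme. Control NSC#1 and Control NSC#2 were the 2 control lines, and mA16d#4, mA19d#4 and mA19d#7 were the 3 Atrx-deleted lines. Every line gave 1 library from proliferation medium, which held EGF and bFGF (20 ng/ml), and 1 from differentiation medium, a neural basal medium with B27 in which cells spent 8 days without growth factors. How the lines were derived, and whether any share a parent clone, is not given in the sources used here. The series concerns neuronal differentiation when Atrx, a chromatin remodeller of heterochromatin and repeats, is lost.

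The 6 genes belong to separate processes. Ramp1 encodes a single-pass membrane protein that joins the receptor Calcrl to form the receptor for the neuropeptide CGRP. Gnao1 encodes Go alpha, a G protein subunit abundant in brain that passes signals from neurotransmitter receptors to ion channels. Capn6 encodes a calpain family protein that lacks protease activity and binds microtubules. Tbx15 encodes a T-box transcription factor known from the mesenchyme of limb and head. Vat1l is a relative of the vesicle membrane protein gene Vat1. Hapln4 encodes a link protein that ties hyaluronan to proteoglycans in the matrix around neurons.

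On GRCm38 the genes lie on 4 chromosomes, and 3 of them share chromosome 8. In the GENCODE annotation, Ramp1 (ENSMUSG00000034353) spans 91179822 to 91225196 on the plus strand of chromosome 1. Tbx15 (ENSMUSG00000027868) spans 99240381 to 99354259 on the plus strand of chromosome 3. Hapln4 (ENSMUSG00000007594, 70083457 to 70090862), Gnao1 (ENSMUSG00000031748, 93809966 to 93969388) and Vat1l (ENSMUSG00000046844, 114205612 to 114374071) lie on the plus strand of chromosome 8. Capn6 (ENSMUSG00000067276) spans 143802231 to 143827414 on the minus strand of chromosome X.

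Promoter windows are shown because these genes were high in the same libraries, and the windows show how unlike their start regions are. RefSeq windows on GRCm38.p6, from 250 bases before to 50 after a start, were at hand for 4 of the 6 genes and not for Tbx15 and Hapln4. They are chr1:91179572-91179871 (plus strand), chr8:93810588-93810887 (plus), chr8:114205390-114205689 (plus) and chrX:143827363-143827662 (minus), with capitals marking CpG pairs.
Ramp1: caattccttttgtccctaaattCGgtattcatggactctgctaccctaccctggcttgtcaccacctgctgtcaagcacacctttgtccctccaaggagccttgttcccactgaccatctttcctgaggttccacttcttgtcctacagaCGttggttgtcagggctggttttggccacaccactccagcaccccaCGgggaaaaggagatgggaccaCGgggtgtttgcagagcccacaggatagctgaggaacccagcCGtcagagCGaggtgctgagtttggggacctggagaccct
Gnao1: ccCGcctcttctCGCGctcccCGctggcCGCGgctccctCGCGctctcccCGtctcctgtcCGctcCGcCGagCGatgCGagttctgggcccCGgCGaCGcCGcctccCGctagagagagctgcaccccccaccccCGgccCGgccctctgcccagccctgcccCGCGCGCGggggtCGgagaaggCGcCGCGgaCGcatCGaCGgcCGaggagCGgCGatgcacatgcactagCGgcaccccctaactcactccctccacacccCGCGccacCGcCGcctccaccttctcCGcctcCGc
Vat1l: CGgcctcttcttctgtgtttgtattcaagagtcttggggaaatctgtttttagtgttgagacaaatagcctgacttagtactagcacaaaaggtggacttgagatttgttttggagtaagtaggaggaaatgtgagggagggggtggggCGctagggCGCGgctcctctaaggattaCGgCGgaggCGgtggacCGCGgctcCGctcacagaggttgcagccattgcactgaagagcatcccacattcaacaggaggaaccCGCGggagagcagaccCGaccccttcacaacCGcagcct
Capn6: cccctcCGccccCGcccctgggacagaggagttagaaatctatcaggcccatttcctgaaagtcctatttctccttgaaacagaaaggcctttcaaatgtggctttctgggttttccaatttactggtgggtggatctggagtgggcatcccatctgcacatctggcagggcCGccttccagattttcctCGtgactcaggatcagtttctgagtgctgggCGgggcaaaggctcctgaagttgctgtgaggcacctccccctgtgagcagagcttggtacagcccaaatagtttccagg
The windows of Ramp1, Vat1l and Capn6 include the GENCODE start of their gene. The Gnao1 window lies wholly inside the GENCODE span, downstream of that start, and so belongs to another start of the gene. It held 42 CpG pairs and was 76.3% G or C, and 97.4% of 32851 RefSeq windows had as many CpG pairs or fewer. Vat1l held 14, Ramp1 6 and Capn6 5, against a median of 7 over all windows, so a CpG-rich start was not shared by these 4. On either strand, TTAGGG, the telomeric repeat unit, was present in the Ramp1 and Gnao1 windows and in 10.6% of all windows. CCAAT (37.4% of all windows) and GGGCGG (35.7%) were present in the Capn6 window alone of the 4. GGGG was present in all 4 and in 86.4% of all windows, and neither TATAAA (13.6%) nor CACGTG (7.15%) was present in any of the 4. These motifs can share bases, and a match describes the letters only.

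Values are TPM, a transcript abundance scaled to a fixed total per library and a level corrected for gene length, after back-transformation from the deposited log2 values. All 10 libraries held one and the same set of values, so depth is unknown. Atrx itself was lower in every Atrx-deleted library (42.8 to 74.0 TPM) than in every control library (127 to 163 TPM). Neural stem cell markers were present throughout, with all 8 tested and a summed level of 9939 to 13411 TPM. The library labelled mA19d#7 in differentiation medium was closer to another line than to its own label, and such values are not given here for the other libraries. Across tested genes its Spearman rank correlation was 0.957 with mA16d#4 in proliferation medium, against 0.926 with its own line label in that medium, so results are also given without it. Whether its label is right cannot be told from the values, and every mA19d#7 response to medium given here takes the label as it stands. The deposited sample codes carry one prefix for all control and another for all Atrx-deleted libraries, and any difference that follows it cannot be told apart from genotype.

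The listed name, genes switched on, does not hold for all of them. Each reached at least 1 TPM in at least 1 control library and 3 of them (Gnao1, Tbx15 and Hapln4) did so in all 4. In every medium the lowest Atrx-deleted library exceeded the highest control library for all 6 genes. This is the pattern they were listed for. Over all 15660 tested genes, 17.8% were higher without overlap in proliferation medium and 18.2% in differentiation medium. Taking both media together, all 6 genes had their lowest of 6 Atrx-deleted libraries above their highest of 4 control libraries, which held for 3.37% of tested genes. In the contrast that chose them, 5 of the 6 were past the adjusted threshold in proliferation medium (0.262% of tested genes were, in that direction) and 4 of the 6 in differentiation medium (1.55%), from which nothing is read. The margin was widest for Tbx15, at 10.6-fold, then 5.91-fold for Capn6. It was 1.49-fold for Hapln4, 1.48-fold for Gnao1, 1.46-fold for Vat1l and 1.15-fold for Ramp1. In these bulk libraries, more cells with a transcript and more transcript per cell cannot be told apart.

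**Figure D1:**
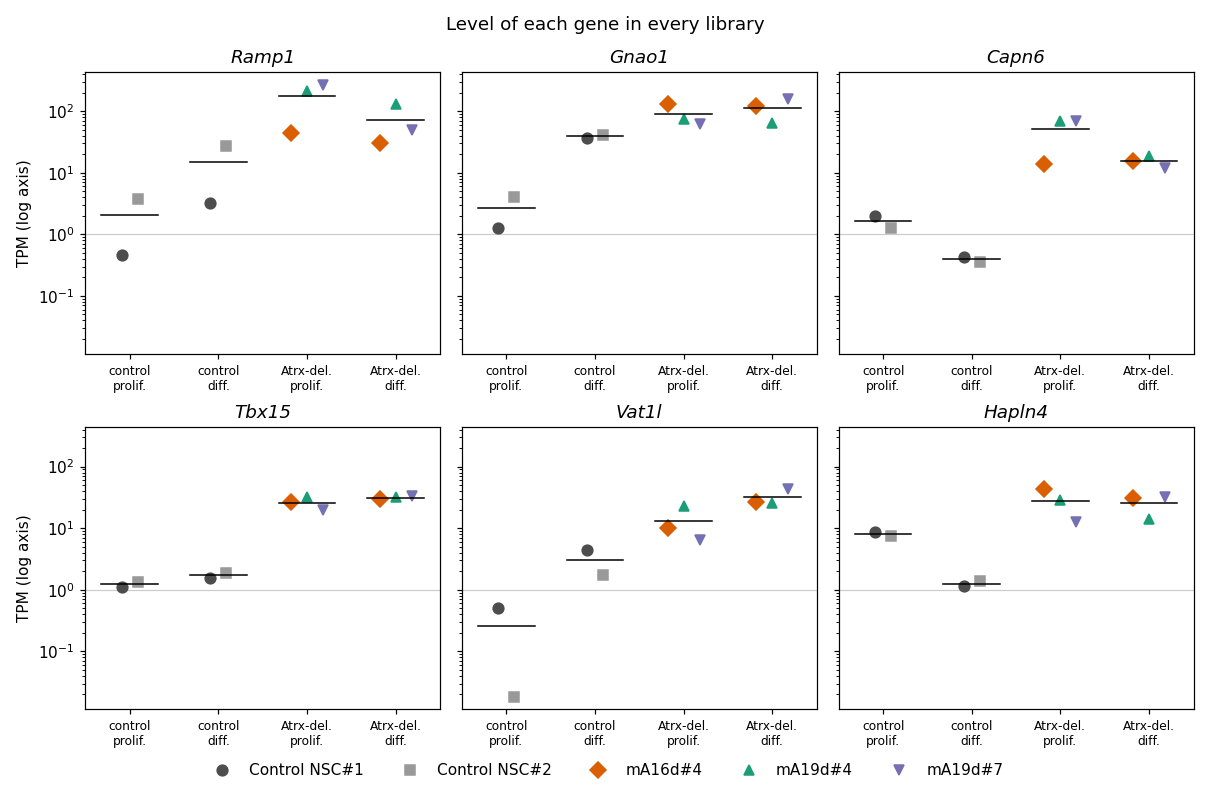
TPM of each gene (log axis) in the 10 libraries, by genotype and medium; symbols mark the line, black bars the group means and the grey line 1 TPM. The Atrx-deleted libraries lie above the control libraries in every panel, by 10.6-fold at the closest for Tbx15 and by 1.15-fold for Ramp1.

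Ramp1, the receptor partner, had the highest single value of the 6, in mA19d#7 in proliferation medium, and the widest spread over the Atrx-deleted libraries. In proliferation medium it was at 0.462 and 3.70 TPM in Control NSC#1 and Control NSC#2, and at 43.7, 216 and 269.7 TPM in mA16d#4, mA19d#4 and mA19d#7, respectively. After the 8 days of differentiation medium it was at 3.19 and 26.9 TPM in the control lines, and at 30.9, 132.2 and 49.9 TPM in the Atrx-deleted lines. The second control line therefore came close to mA16d#4 in differentiation medium, and the groups were nearly joined there. Ranked by level in its library, Ramp1 stood at place 14681 of 21101 in Control NSC#1 and at place 560 in mA19d#7, both in proliferation medium. The mean in differentiation medium was 71.0 ± 53.9 TPM (SD, n = 3), beside 15.1 ± 16.8 TPM (SD, n = 2) in control lines. Without the library labelled mA19d#7 the Atrx-deleted mean was 81.6 TPM.

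The rest of the calcitonin receptor family was described from a list of 10 genes, of which 6 could be tested. Calcrl, the receptor that Ramp1 joins, was well expressed in every group, with means of 76.1 ± 12.9 TPM (SD, n = 2) in control and 87.0 ± 16.8 TPM (SD, n = 3) in Atrx-deleted lines in proliferation medium. Its genotype difference did not pass (log2 0.18, SE 0.224, limma adjusted p = 0.766). Calca and Calcb, which encode the CGRP peptides, stayed at group means of 1.21 TPM or less, and the calcitonin receptor gene Calcr at 0.139 TPM or less. Ramp3, another partner of Calcrl, averaged 3.83 ± 0.873 TPM (SD, n = 3), with a control mean of 0.246 ± 0.337 TPM (SD, n = 2) in proliferation medium, a log2 difference of 1.97 that missed the threshold (SE 0.455, limma adjusted p = 0.102). Ramp2, the remaining member of the RAMP group, was at 30.7 ± 7.38 and 15.6 ± 2.88 TPM in Atrx-deleted and control lines in proliferation medium (log2 0.92, limma adjusted p = 0.316) and at 25.7 ± 9.73 and 33.1 ± 12.5 TPM in differentiation medium (log2 -0.38, limma adjusted p = 0.609). None of the 6 passed by genotype in either medium, with 2 below an unadjusted p of 0.05 in each (limma). In the control lines Calcrl fell in differentiation medium (log2 -1.11, SE 0.246, limma adjusted p = 0.0349). That call was lost with the line as a block (adjusted p = 0.0845), without trend, with no filter on low values, without any 1 of the 4 control libraries (0.0938 to 0.306) and without mA19d#4 in proliferation medium (0.0570).

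Gnao1, the G protein subunit, was low in proliferating control cells and well expressed in the other 3 groups. It was at 1.26 and 4.01 TPM in the control lines in proliferation medium, and at 131, 76.0 and 61.4 TPM in mA16d#4, mA19d#4 and mA19d#7, respectively. After the 8 days of differentiation medium the control lines were at 36.5 and 41.6 TPM, and the Atrx-deleted lines at 120.0, 63.2 and 157 TPM. The fold between means was 34.1 in proliferation medium and 2.91 in differentiation medium, or 2.35 without the library labelled mA19d#7. The mean of proliferating Atrx-deleted lines was 2.29 times that of the control lines in differentiation medium. An antisense gene that overlaps Gnao1, 4930488L21Rik, stayed at or below 0.0514 TPM in every library.

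The other G protein genes were described from 3 lists. Of 13 other tested alpha subunit genes none passed by genotype in either medium, with 1 and 0 below an unadjusted p of 0.05 (limma). Gnai2, an inhibitory subunit gene with the highest level of the family, was at 754 TPM in control and 1003 TPM in Atrx-deleted lines in proliferation medium. Gnas, the stimulatory subunit gene, was at 161 ± 6.85 TPM (SD, n = 2) and 427 ± 151 TPM (SD, n = 3) in the same groups (log2 1.33, SE 0.323, limma adjusted p = 0.119). In differentiation medium Gnas was at 267 TPM in control and 295 TPM in Atrx-deleted lines (log2 0.10, limma adjusted p = 0.902). Of 15 beta and gamma subunit genes none passed in proliferation medium (2 at an unadjusted p under 0.05, limma) and 1 rose in differentiation medium, Gng2. Gng2 averaged 81.7 ± 35.1 TPM (SD, n = 3), with a control mean of 15.4 ± 0.0757 TPM (SD, n = 2), a log2 difference of 2.25 (SE 0.291, limma adjusted p = 0.00705). Of 16 tested regulators and partners of Go none passed in proliferation medium (4 at an unadjusted p under 0.05, limma), and 1 rose in differentiation medium, Rgs19. This gene, which encodes a protein that speeds GTP hydrolysis on G proteins of the Go and Gi class, averaged 46.9 ± 15.6 TPM (SD, n = 3), with a control mean of 14.7 ± 1.01 TPM (SD, n = 2), a log2 difference of 1.56 (SE 0.267, limma adjusted p = 0.0191). Without the first or the second control library of differentiation medium the adjusted p (limma) was 0.118 and 0.0744 for Gng2, and 0.192 and 0.111 for Rgs19. With the 2 groups fitted alone it was 0.117 and 0.157. Of all tested genes, 2.89% passed in that medium in either direction.

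Capn6, the microtubule-binding calpain, was low in control lines, at 0.353 to 2.02 TPM over both media, and its Atrx-deleted lines were unlike while proliferating. In that medium it was at 2.02 and 1.28 TPM in the control lines, and at 13.8, 70.1 and 70.2 TPM in mA16d#4, mA19d#4 and mA19d#7, respectively. After the 8 days of differentiation medium it was at 0.432 and 0.353 TPM in the control lines, and at 15.8, 18.5 and 11.9 TPM in the Atrx-deleted lines, which were then much alike. The fold between means was 31.2 and 39.3 in the respective media, and 43.7 in differentiation medium without the library labelled mA19d#7. Of 13 other tested genes of the calpain system none passed by genotype (0 and 1 at an unadjusted p under 0.05, limma). Capns1, the small regulatory subunit gene, was at 326 to 484 TPM in the 4 group means. Capn2, a widely expressed protease of the family, was at 129.6 to 165 TPM in the 4 group means.

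Tbx15, the T-box factor, gave the tightest values of the 6. It was at 1.09 and 1.36 TPM in the control lines in proliferation medium, and at 26.5, 31.6 and 19.6 TPM in mA16d#4, mA19d#4 and mA19d#7, respectively. After the 8 days of differentiation medium it was at 1.56 and 1.85 TPM in the control lines, and at 29.7, 31.6 and 33.2 TPM in the Atrx-deleted lines. Across its 6 Atrx-deleted libraries the highest value was 1.70 times the lowest, against 8.74 times for Ramp1, 6.65 for Vat1l, 5.89 for Capn6, 3.35 for Hapln4 and 2.56 for Gnao1. Of 9 other tested T-box genes none passed by genotype (1 and 0 at an unadjusted p under 0.05, limma). Mga, a large factor with a T-box, was at 30.4 TPM in control and 42.0 TPM in Atrx-deleted lines in proliferation medium. Tbx18, another T-box gene, was at 16.2 ± 0.778 TPM (SD, n = 2) in control and 14.2 ± 6.14 TPM (SD, n = 3) in Atrx-deleted lines in proliferation medium. Since Tbx15 marks mesenchyme, 11 markers of mesenchymal and meningeal fibroblasts were summed. The sum was 46.7 to 50.1 TPM in control and 44.7 to 89.0 TPM in Atrx-deleted libraries of proliferation medium, and 31.8 to 38.6 TPM and 42.9 to 114 TPM, without overlap, in differentiation medium. Among single tested genes, 18.2% were higher without overlap in differentiation medium. Col1a2 and Pdgfrb were below 1 TPM in every library, and none of the 8 tested markers passed by genotype (0 and 2 at an unadjusted p under 0.05, limma). The part such cells might have in the Tbx15 values was not tested.

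Vat1l had the lowest mean of the 6 in the control lines in proliferation medium. It was at 0.5004 and 0.0185 TPM there, and at 10.2, 23.1 and 6.51 TPM in mA16d#4, mA19d#4 and mA19d#7, respectively. After the 8 days of differentiation medium it was at 4.47 and 1.72 TPM in the control lines, and at 26.6, 25.3 and 43.3 TPM in the Atrx-deleted lines. Every line was thus higher in differentiation medium, and the lowest Atrx-deleted value (6.51 TPM, proliferation medium) stood close to the highest control value (4.47 TPM, differentiation medium). The fold between means in differentiation medium was 10.3, or 8.39 without the library labelled mA19d#7. Vat1 itself, the better known relative, was at 172 and 185 TPM in control and Atrx-deleted lines in proliferation medium. Zadh2, a zinc-binding member of the group, was at 105 and 65.0 TPM there. Of 8 tested relatives among the quinone reductases, none passed by genotype (4 and 2 at an unadjusted p under 0.05, limma). An overlapping antisense gene, 4933408N05Rik, stayed at or below 0.0913 TPM.

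Hapln4, the matrix link gene, was well above 1 TPM in proliferating control cells and near it in control cells of differentiation medium. It was at 8.63 and 7.58 TPM in the control lines in proliferation medium, and at 42.9, 28.6 and 12.8 TPM in mA16d#4, mA19d#4 and mA19d#7, respectively. After the 8 days of differentiation medium it was at 1.14 and 1.38 TPM in the control lines, and at 30.5, 14.0 and 32.1 TPM in the Atrx-deleted lines. The fold between means was 3.47 in proliferation medium and 20.3 in differentiation medium, or 17.7 without the library labelled mA19d#7. By log2 difference over all tested genes, from the highest down, Hapln4 ranked 228 in proliferation medium and 11 in differentiation medium, whereas Gnao1 ranked 4 and 443 and Ramp1 1 and 54.

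Of the 14 other tested genes of the hyaluronan matrix, none passed in proliferation medium (2 at an unadjusted p under 0.05, limma) and 2 were higher in differentiation medium. Tnc, a matrix glycoprotein of neural stem cells and glia, averaged 86.8 ± 64.7 TPM (SD, n = 3), with a control mean of 7.88 ± 2.22 TPM (SD, n = 2), a log2 difference of 3.09 (SE 0.506, limma adjusted p = 0.0177). Hmmr, a hyaluronan receptor also known from the mitotic spindle, was at 34.3 ± 14.8 against 7.76 ± 2.87 TPM (log2 1.94, SE 0.419, limma adjusted p = 0.0396). Without the first or the second control library of differentiation medium the adjusted p (limma) was 0.190 and 0.0939 for Tnc and 0.325 and 0.122 for Hmmr, which passed in 6 of its 17 alternatives. Tnc passed in 13 of its 17 alternatives. Its call was also lost with the 2 groups fitted alone (limma adjusted p = 0.151) and with no filter on low values (adjusted p = 0.0582). Ncan, a proteoglycan whose gene neighbours Hapln4, was at 826 ± 43.3 and 857 ± 201 TPM in control and Atrx-deleted lines in proliferation medium, with no difference past the test (log2 0.03, limma adjusted p = 0.984). Summed neuron markers were at 676 to 696 TPM in control and 743 to 933 TPM in Atrx-deleted libraries of proliferation medium, and none of 7 tested passed there (1 at an unadjusted p under 0.05, limma). In differentiation medium the sums were 814 to 843 TPM and 428 to 1211 TPM, and 1 of the 7 passed, the neuronal splicing factor gene Rbfox3, which was lower in the Atrx-deleted lines. What neuronal cells contribute to the Gnao1 and Hapln4 values was not tested. Astrocyte markers summed to 966 to 1127 TPM in control and 1311 to 1490 TPM in Atrx-deleted libraries of proliferation medium, without overlap. Among single tested genes, 17.8% were higher without overlap in that medium. In differentiation medium the astrocyte sums were 2083 to 2189 TPM and 1546 to 3215 TPM. None of the 6 astrocyte markers passed by genotype (1 and 2 at an unadjusted p under 0.05, limma), and their part in the values of the described genes was not tested. Sums of smooth muscle and pericyte (4.91 to 17.6 TPM), microglia (0.337 to 11.3 TPM) and endothelial markers (3.51 to 6.75 TPM) were low, and none of those passed.

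**Figure D2:**
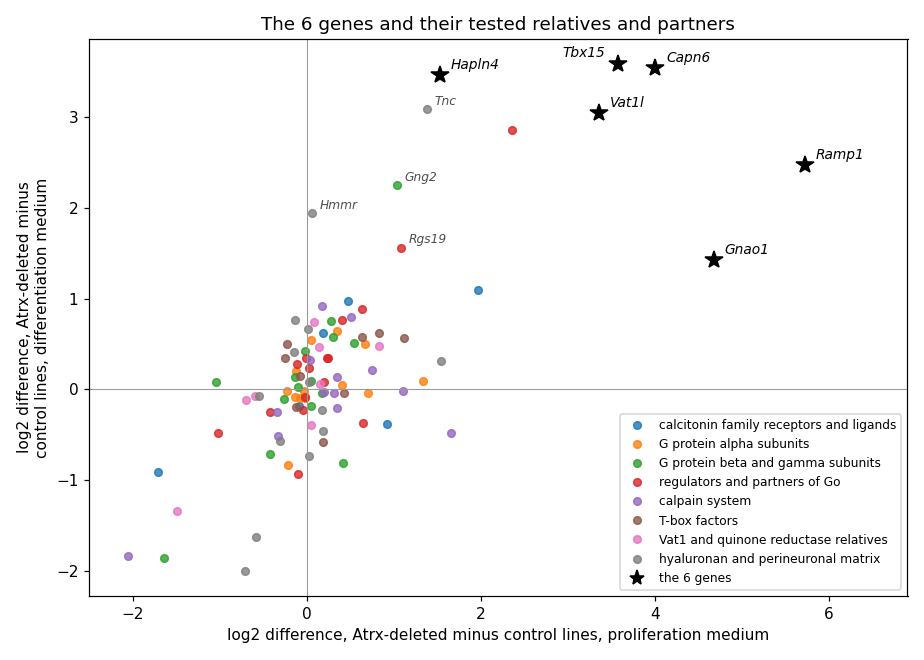
Log2 difference between Atrx-deleted and control lines in proliferation medium (x axis) and in differentiation medium (y axis) for the 6 genes (stars) and the 94 tested relatives and partners (points, coloured by list). The stars lie apart from most points, which is how they were chosen; the 4 labelled points passed the test in differentiation medium.

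Across the 8 lists of relatives and partners, 94 of 110 genes were tested. None passed by genotype in proliferation medium, where 16 had an unadjusted p under 0.05 (limma), a level that 13.7% of all tested genes reached, and 0.46% of all passed. In differentiation medium the 4 genes named above passed, all higher. Of all tested genes, 1.55% passed in that direction and 2.89% in either. Of the 94, 15 had an unadjusted p under 0.05 (limma), against 20.2% of all tested genes. The median log2 difference per list lay between -0.02 and 0.33 in proliferation medium, beside -0.02 over all tested genes.

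The response to medium was not the contrast that chose these genes, but it uses the same libraries. It was tested with limma over all 10 libraries. The medium in which each gene was first seen to be far higher is not given. Low control or high Atrx-deleted levels in such a medium can be tilted by that choice. The responses of the 6 genes, that of Gnao1 included, are therefore no independent results. In the control lines 1 of the 6 passed, against 4.51% of all tested genes, and 3 had an unadjusted p under 0.05 (limma), against 19.9%. By sign alone, 4 of the 6 were higher in differentiation medium in both control lines (35.4% of tested genes) and 2 were lower in both (36.9%). Gnao1 rose from 2.63 ± 1.94 to 39.1 ± 3.65 TPM (SD, n = 2), a log2 response of 3.57 (SE 0.490, limma adjusted p = 0.0062). It was higher in both control lines, by 29.0-fold and 10.4-fold. Its adjusted p (limma) was 0.0155 with the line as a block, and the call was lost (0.108, 0.0747 and 0.0594) without the first proliferation library or the first or second differentiation library of the control lines.

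Of the 94 tested relatives and partners, 5 fell in the control lines, and 16 had an unadjusted p under 0.05 (limma). Besides Calcrl these were Gng2 (log2 -2.396, limma adjusted p = 0.00619), Rgs16, a further regulator of G protein signals (-2.25, adjusted p = 0.0428), Tnc (-3.34, adjusted p = 0.0119) and Hmmr (-2.56, adjusted p = 0.0160). Each of these calls was lost when single control libraries were left out: 3 of the 4 for Gng2 (0.0560 to 0.110) and Hmmr (0.0685 to 0.197), and all 4 for Tnc (0.0642 to 0.150) and Rgs16 (0.0585 to 0.346). Of 18 alternatives, Rgs16 passed in 7, Gng2 in 15, and Tnc and Hmmr in 14 each. The Rgs16 call was also lost without trend, with no filter on low values and with the control libraries fitted alone (limma adjusted p = 0.0670, 0.110 and 0.0869). In the Atrx-deleted lines none of the 94 passed, with 17 below an unadjusted p of 0.05 (limma).

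Hapln4 had a control response of the opposite sign that just missed the threshold. Its mean was 8.11 ± 0.738 TPM (SD, n = 2) in proliferation medium and 1.26 ± 0.170 TPM (SD, n = 2) in differentiation medium, a log2 response of -2.01 (SE 0.530, limma adjusted p = 0.0612). Both control lines were lower, at 0.132 and 0.182 of their starting level. This Hapln4 response passed in only 7 of 18 alternatives. With the control libraries fitted alone the adjusted p (limma) was 0.0245, and dropping the mA19d#7 differentiation library gave 0.0449. It did not pass with the line as a block (0.0833), without trend (0.0844) or with no filter on low values (0.138). When any 1 control library was left out, the response was -2.09 to -1.93. Vat1l (log2 1.64, SE 0.563, limma adjusted p = 0.130) and Ramp1 (2.05, SE 1.07, adjusted p = 0.335) were higher in both control lines without passing. Tbx15 gave 0.28 (adjusted p = 0.667, limma) and Capn6 -0.91 (adjusted p = 0.499), neither past the test.

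In the Atrx-deleted lines none of the 6 passed (limma), with 2 of them, Capn6 and Vat1l, below an unadjusted p of 0.05, a level that 14.8% of tested genes reached. Over all tested genes 0.083% passed by the adjusted p. Vat1l was higher in differentiation medium in all 3 lines, as were 17.9% of tested genes, and in all 5 lines of the study, as were 11.2%. Its mean response in the Atrx-deleted lines was 1.33 (SE 0.460, limma adjusted p = 0.233), with line responses of 1.30, 0.12 and 2.56 in mA16d#4, mA19d#4 and mA19d#7. Capn6 had a mean response of -1.38 (SE 0.537, adjusted p = 0.275), at 0.19 in mA16d#4 and -1.87 and -2.46 in mA19d#4 and mA19d#7. Capn6 passed in 1 of 18 alternatives, the one with mA16d#4 in proliferation medium left out (limma adjusted p = 0.0471). Gnao1 had a mean response of 0.32 (SE 0.400, adjusted p = 0.761), or 0.04 without the library labelled mA19d#7. Tbx15 gave 0.30 (SE 0.245, adjusted p = 0.621) and Hapln4 -0.07 (SE 0.432, adjusted p = 0.961).

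The line responses of Ramp1 had opposite signs in the 2 genotypes, with no test passed. It was higher in differentiation medium in both control lines, with responses of 1.52 and 2.57, and lower in all 3 Atrx-deleted lines (15.8% of tested genes), with -0.49, -0.70 and -2.41 in mA16d#4, mA19d#4 and mA19d#7. The mean response in the Atrx-deleted lines was -1.20 (SE 0.873, limma adjusted p = 0.569). The difference between the genotypes' responses was -3.25 (SE 1.38, limma adjusted p = 0.676), and with the line as a block its SE was 0.617 (adjusted p = 0.365). This difference uses the libraries in which Ramp1 was seen to be high, so it is no independent result. For Gnao1 the same difference was -3.26 (SE 0.632, adjusted p = 0.288) and for Hapln4 1.94 (SE 0.684, adjusted p = 0.607). None of the 6 passed for this difference (limma), 3 had an unadjusted p under 0.05 (7.02% of tested genes), and over all tested genes 0.00639% passed by the adjusted p.

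**Figure D3:**
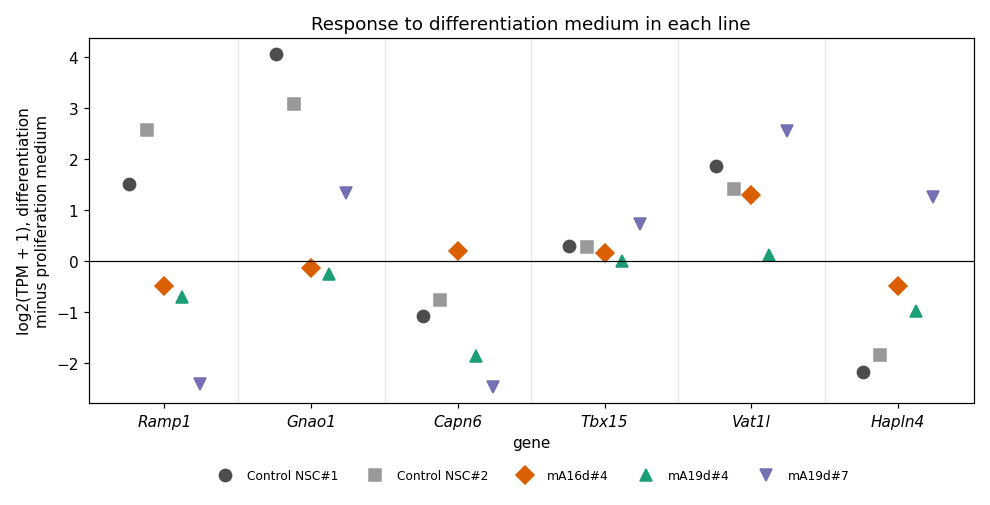
Change of log2(TPM + 1) from proliferation to differentiation medium for each gene, with 1 point per line. Control lines lie above 0 and Atrx-deleted lines below 0 for Ramp1, Gnao1 points of the control lines lie at 3.09 and 4.05, and Vat1l lies above 0 in all 5 lines.

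Among the Atrx-deleted lines the genes did not rank alike. In proliferation medium mA16d#4 had the lowest Ramp1 and Capn6 (43.7 and 13.8 TPM) and the highest Gnao1 and Hapln4 (131 and 42.9 TPM). The mA19d#4 and mA19d#7 libraries of that medium were close for Ramp1 (216 and 269.7 TPM), Gnao1 (76.0 and 61.4 TPM) and Capn6 (70.1 and 70.2 TPM). They lay further apart for Vat1l (23.1 and 6.51 TPM), Hapln4 (28.6 and 12.8 TPM) and Tbx15 (31.6 and 19.6 TPM). In differentiation medium the library labelled mA19d#7 lay nearer to mA16d#4 than to mA19d#4 for 5 of the 6 genes: Ramp1 (49.9 beside 30.9 and 132.2 TPM), Gnao1 (157 beside 120.0 and 63.2 TPM), Hapln4 (32.1 beside 30.5 and 14.0 TPM), Capn6 (11.9 beside 15.8 and 18.5 TPM) and, by a small margin, Vat1l (43.3 beside 26.6 and 25.3 TPM). Tbx15 lay nearer to mA19d#4 (33.2 beside 29.7 and 31.6 TPM). Over all tested genes the Spearman rank correlation of that library was also higher with mA16d#4 (0.938) than with mA19d#4 (0.915) in differentiation medium. The order is therefore not particular to the 6 genes. With 1 library per line and medium, these differences between lines have no replicate.

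The genes beside each of the 6 were examined for the same differences, taking the 3 nearest tested genes on each side. None of these 36 neighbours passed by genotype in either medium (5 and 8 at an unadjusted p under 0.05, limma). Their log2 differences lay between -2.24 and 2.08 (proliferation) and between -1.88 and 1.49 (differentiation). The neighbour nearest to the threshold was Nudt7, a peroxisomal hydrolase gene 72.1 kb from the Vat1l start. It was lower where Vat1l was higher, at 0.106 against 4.17 TPM in proliferation medium (log2 -2.24, SE 0.443, limma adjusted p = 0.067) and at 0.295 against 3.79 TPM in differentiation medium (log2 -1.88, limma adjusted p = 0.0518). The highest difference was that of Dcx, a microtubule protein of young neurons 106 kb from the Capn6 start, at 16.6 against 2.36 TPM in proliferation medium (log2 2.08, SE 0.666, limma adjusted p = 0.216). Nudt7 and Dcx were singled out after their values were seen. Chromosome 8 as a whole, which holds Hapln4, Gnao1 and Vat1l, had a median log2 difference of 0.22 in each medium over 805 tested genes, beside -0.02 and 0.02 over all tested genes. The medians in proliferation and differentiation medium were 0.22 and 0.14 for chromosome 1 (Ramp1), -0.13 and 0.04 for chromosome 3 (Tbx15), and -0.20 and -0.23 for chromosome X (Capn6).

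**Figure D4:**
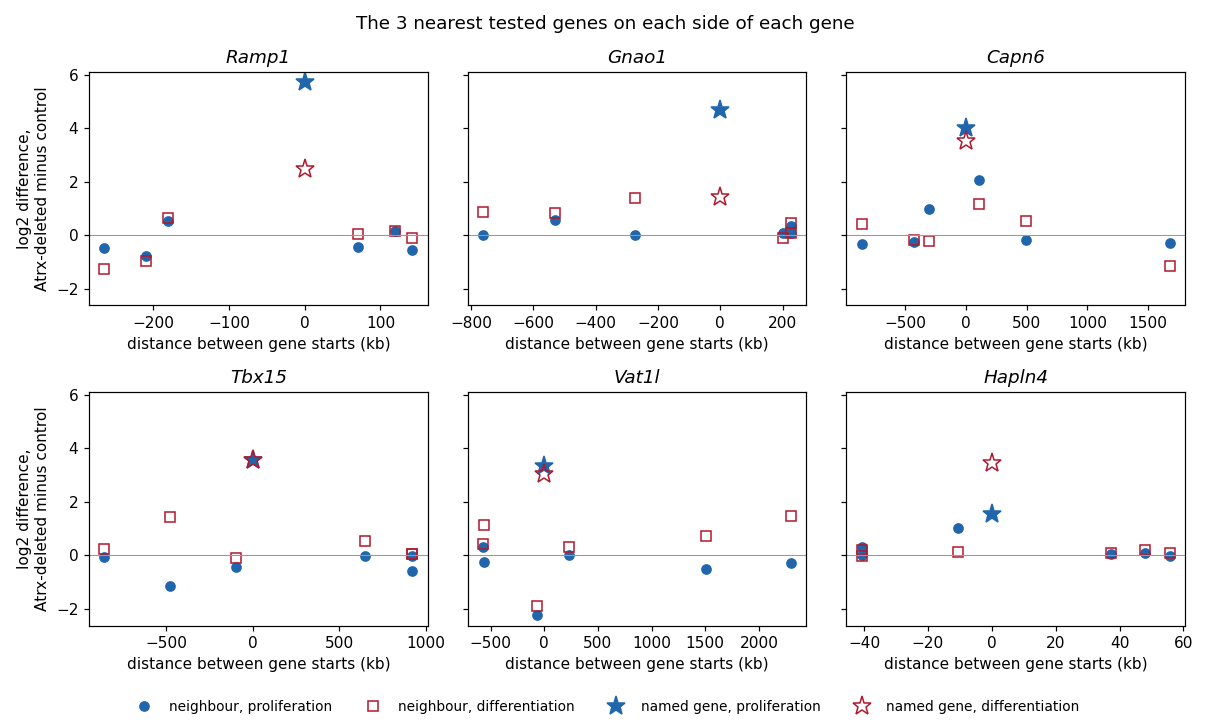
Log2 difference between Atrx-deleted and control lines (y axis) for the 3 nearest tested genes on each side of each of the 6 genes, against the distance between gene starts in kb (x axis), in proliferation medium (filled) and differentiation medium (open). Neighbours lie between -2.24 and 2.08, and the stars at 0 kb are the 6 genes.

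Genes with the most similar profiles were found by Pearson's r of log2(TPM + 1) over the 10 libraries, a description, since the libraries share their group structure. Closest to Ramp1 were Gatad2a (0.968), Ppdpf (0.958) and the homeobox gene Hoxa4 (0.955). Closest to Gnao1 were the small GTPase gene Rac3 (0.976), Vapb (0.960) and Tmem189 (0.956). Closest to Capn6 were Evc (0.956), a ciliary gene, the sugar transporter family gene Slc2a6 (0.953) and a clone-type symbol. Closest to Tbx15 were Slc16a13 (0.973), Sfmbt2 (0.973), a Polycomb-related gene, and Arfgap1 (0.970). Closest to Vat1l were the purine salvage gene Aprt (0.960), Ints10 (0.957) and the homeobox gene Six2 (0.954), and closest to Hapln4 were Fkbp1b (0.981), the syntaxin gene Stx1a (0.967) and a clone-type symbol. Six2 was at 0.255 and 1.11 TPM in control lines and 5.58 and 13.1 TPM in Atrx-deleted lines, in proliferation and differentiation medium. These neighbours in pattern were not stable: 1 of the 18 was named again with Spearman's rank correlation, and 4 without the library labelled mA19d#7 in differentiation medium. Between pairs of the 6 genes r ran from 0.45 for Gnao1 and Hapln4 to 0.91 for Tbx15 and Vat1l, all 6 having been chosen for 1 common difference.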

How the data were processed

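RNA of 10 libraries of mouse neural stem cells (TruSeq RNA kit, per the labels' protocols) was examined from the log2 values that the authors deposited, 1 per gene and library. Per the submitters' processing notes reads were aligned with STAR to mm10; for versions, annotation, strand setting and the tool behind the TPM the sources used here give nothing. The values add up to 997524 per library after back-transformation, and all 10 libraries hold the same sorted values with 1213 genes at a floor of -8, which is the form quantile normalisation gives, and depth and changes in total cannot be seen from them.

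A linear model of log2(TPM + 1) with 4 group means and a trend of variance on level was run in limma 3.58.1 under R 4.3.3 over all 10 libraries (6 residual degrees of freedom). The test took the 15660 genes that reached 1 TPM in 2 or more libraries. Adjustment (Benjamini-Hochberg) ran over all of these, with a threshold of 0.05. The p-values rest on the spread between these lines within a group and measure no other spread. For each gene it was pooled over the 4 groups, both media included, and drawn by limma towards the trend over all tested genes. Folds between means are of TPM; log2 differences understate changes of low genes. The fit was tested on simulated data. Line labels recur in both media, so the line was also fitted as a block for the medium comparisons and the interaction. The genotype comparisons had no such block, and their fit took the libraries of a line in both media as independent. The correlation of deviations between the media was 0.159, 0.404 and -0.194 for mA16d#4, mA19d#4 and mA19d#7 and 0.0624 for the control lines.

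The 6 genes, the 8 gene lists and 8 marker lists were chosen with earlier results of these data known; the result of 1 marker list is not reported here. Named besides the 6 were, per list, up to 3 higher and 3 lower genes past the test in a genotype or medium comparison (where none passed, the 2 of highest mean TPM), the 3 genes of highest r to each member, and neighbours past the test; Ramp2, Ramp3, Calca, Calcb, Calcr, Ncan, Nudt7 and Dcx lie outside this rule and were chosen after their values were seen. Positions are from GENCODE M21 (GRCm38, the mm10 build), which matched 15037 tested genes by symbol.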

Additional observations from a re-analysis of the deposited data

Results flagged for a closer look

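The line responses of Ramp1 to differentiation medium had opposite signs in the 2 kinds of line, which called for a closer look. Ramp1 was higher there in both control lines and lower in all 3 Atrx-deleted lines. Neither mean response passed: 2.05 in control lines (limma adjusted p = 0.335) and -1.20 in Atrx-deleted lines (adjusted p = 0.569). Without the Control NSC#2 differentiation library the control response was 0.68. The share of all tested genes with these joint signs was not computed. The difference of the responses was -3.25 on the log2 scale, and the test of that difference did not pass (limma adjusted p = 0.676). Without the library labelled mA19d#7 in differentiation medium it was -3.13 (adjusted p = 0.473). Ramp1 was listed for its high level in the Atrx-deleted lines, and this difference uses the same libraries.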

How the results depend on the processing

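The 2 control lines and 3 Atrx-deleted lines limit every test, and counts over all genes depended on single libraries. Of all tested genes 72 passed for Atrx deletion in proliferation medium, 37 with no filter on low values and 39 with the deposited log2 values tested directly, an alternative chosen after seeing the data. In differentiation medium 452 passed, and 2 with the compared groups fitted alone. For medium in control lines 706 passed, and 2080 with these groups alone. For medium in Atrx-deleted lines 13 passed, 2 with no filter, 0 without trend, 6 with the cell line as a replicate block and 0 with these groups alone. For the interaction 1 passed, 30 with no filter, 2 without trend, and 0 with pseudocounts of 0.1 or 0.5 TPM, the 5 TPM filter, the replicate block or the deposited log2 values. Leaving out 1 library gave 0 to 249, 11 to 935, 6 to 1447, 0 to 348 and 0 to 3 in the same order. Of the 6 genes, 1 passed for medium in control lines, 3 with a pseudocount of 0.1 TPM, 2 with 0.5 TPM, with the deposited log2 values or with these groups alone, and 0 to 2 with a library left out; in Atrx-deleted lines 0 to 1 passed with a library left out. The replicate block, fitted for medium and interaction only, changed no call of the 6 genes there. Of the 18 most similar genes 11 were named again with a pseudocount of 0.1 TPM, 1 with Spearman's rank correlation and 4 to 14 with a library left out.

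Values that were small and past no test changed sign. The Capn6 interaction was 0.38 with a pseudocount of 0.1 TPM and 0.61 with the deposited log2 values. The Tbx15 interaction was -0.14, -0.055 and -0.17 with pseudocounts of 0.1 and 0.5 TPM and the deposited log2 values, and -0.17 to 0.16 with a library left out. With a library left out, the Vat1l interaction was -0.82 to 0.19 and the Hapln4 response in Atrx-deleted lines -0.53 to 0.30. The causes were not tested, except that fewer libraries or genes enter where some are left out.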
